A study of Mus musculus with 6 samples.

Results

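The 43 genes described here are transcripts of developing T cells (thymocytes) and of the thymic tissue that surrounds them, measured in the hearts of newborn mice. They are 43 of the 56748 genes in the deposited table and were taken by name, because their levels in FF replicate 3 stood above those in the other 5 libraries. That difference chose them, so it is described below with no test and supports nothing. The 43 genes fall into 7 roles: 8 T cell receptor chains and CD3 subunits, 10 co-receptors and surface proteins, 4 proximal signalling genes, 3 receptor recombination genes, 7 transcription factors, 5 MHC class II presentation genes and 6 thymic epithelium genes.

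RNA was sequenced from hearts at postnatal day 1 in 2 groups of 3 libraries, and the labels do not state whether the whole organ was used. The FF group carries the genotype FF and comes from mice labelled Flox; they are read here as floxed controls for Kdm5b, although the labels do not spell this out. The cKO group is labelled as a cardiac specific knockout of Kdm5b, a demethylase of lysine 4 of histone H3. The labels name neither the Cre driver nor the animal behind each library, so p-values measure only the spread between these samples, which may be technical.

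The thymus lies just above the heart in the chest and is large in newborn mice. In it, blood-borne progenitors become T cells: they cut and join the T cell receptor beta gene segments with the RAG recombinase, pair the beta chain with the pre-T alpha chain, and then carry both CD4 and CD8 while the alpha gene is joined. Thymic epithelial cells, made under the transcription factor Foxn1, support these steps and show the thymocytes peptides on MHC class II molecules.

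The T cell receptor beta locus has a pair of constant region genes, and their near identity sets how far reads can be assigned to either. Below, bases 241 to 500 of their transcripts in GENCODE M21 (build GRCm38) are written 5′ to 3′, with the bases at which they differ in capitals.

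Trbc1: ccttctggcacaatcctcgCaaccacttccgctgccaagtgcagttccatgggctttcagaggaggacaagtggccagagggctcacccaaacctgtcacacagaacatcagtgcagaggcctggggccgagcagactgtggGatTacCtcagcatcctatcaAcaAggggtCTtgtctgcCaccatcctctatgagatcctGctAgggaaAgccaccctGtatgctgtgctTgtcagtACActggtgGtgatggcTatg

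Trbc2: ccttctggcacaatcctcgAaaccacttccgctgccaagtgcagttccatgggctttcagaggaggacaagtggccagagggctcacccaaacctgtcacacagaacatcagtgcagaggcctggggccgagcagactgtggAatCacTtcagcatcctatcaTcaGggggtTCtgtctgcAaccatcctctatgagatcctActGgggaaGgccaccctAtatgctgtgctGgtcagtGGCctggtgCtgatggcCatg

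Over the first 500 bases the transcripts are 96.2% identical, with 19 differences, of which the earliest lies at base 260. There are 0 differences in the first 240 bases, 1 in the first 382 and 18 in bases 383 to 500. Reads from the first part of the gene may therefore be split between Trbc1 and Trbc2 or left out of both, since the sources do not state how the counting treated them. The sum of both does not depend on such a split, but it may be too low if reads were left out.

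Start regions of 4 genes are shown because they carry short motifs of the kinds searched for: Ptcra and Cd3d for thymocytes, and H2-Aa and H2-Eb1 for MHC class II presentation. Each runs from 250 bases before to 50 bases after the RefSeq start in build GRCm38.p6 and is written 5′ to 3′ on the gene's strand. Ptcra lies at chr17:46763663-46763962 (minus strand), Cd3d at chr9:44981536-44981835 (plus strand), H2-Aa at chr17:34287774-34288073 (minus strand) and H2-Eb1 at chr17:34305617-34305916 (plus strand). Capitals mark the E box CAGCTG in Ptcra, the E box CAGGTG (read on the minus strand as CACCTG) and the TCF and LEF motif CTTTGA (also as TCAAAG) in Cd3d, and the Y box CTGATTGG in the H2 genes.

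Ptcra: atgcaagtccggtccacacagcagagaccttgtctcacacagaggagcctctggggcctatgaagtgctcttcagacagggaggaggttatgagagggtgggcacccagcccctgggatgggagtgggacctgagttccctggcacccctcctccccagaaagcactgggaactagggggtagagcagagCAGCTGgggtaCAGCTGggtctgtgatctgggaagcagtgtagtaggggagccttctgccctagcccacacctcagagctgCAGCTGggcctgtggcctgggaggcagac

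Cd3d: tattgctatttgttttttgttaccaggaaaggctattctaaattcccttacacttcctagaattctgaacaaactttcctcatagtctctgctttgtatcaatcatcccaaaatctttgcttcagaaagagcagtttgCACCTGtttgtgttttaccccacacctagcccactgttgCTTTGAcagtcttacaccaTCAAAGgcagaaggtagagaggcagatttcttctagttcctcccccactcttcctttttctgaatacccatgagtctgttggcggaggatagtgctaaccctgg

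H2-Aa: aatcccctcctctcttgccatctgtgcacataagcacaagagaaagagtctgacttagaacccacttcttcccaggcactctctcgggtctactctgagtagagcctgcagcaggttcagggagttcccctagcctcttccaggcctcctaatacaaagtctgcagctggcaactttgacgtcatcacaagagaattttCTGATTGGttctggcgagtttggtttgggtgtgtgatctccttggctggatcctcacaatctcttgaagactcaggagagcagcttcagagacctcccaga

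H2-Eb1: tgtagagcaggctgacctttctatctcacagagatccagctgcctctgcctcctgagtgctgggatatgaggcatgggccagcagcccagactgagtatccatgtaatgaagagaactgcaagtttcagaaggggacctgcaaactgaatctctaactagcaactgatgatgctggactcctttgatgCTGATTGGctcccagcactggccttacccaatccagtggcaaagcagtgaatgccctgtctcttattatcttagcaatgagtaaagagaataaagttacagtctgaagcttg

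The CAGCTG copies in Ptcra begin at positions -60, -49 and 21 from the start, and the Y box begins at -51 in H2-Aa and -62 in H2-Eb1. RefSeq start regions were matched for 30 of the 43 genes, 45 start regions in all, and each motif was searched on both strands. The Y box was in 3 of the 45 (6.67%), the third being Aire, against 4.10% of all 32851 start regions. CAGCTG was in 31.1% against 16.3%, CAGGTG in 40.0% against 20.2%, and CTTTGA in 22.2% against 16.0%. The ETS motif AGGAAG was in 42.2% against 35.4%, the GATA motif GATAAG in 8.89% against 7.44% and the RUNX motif TGTGGT in 8.89% against 16.8%. These letters are a description of sequence and were not tested.

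The 6 libraries held 15658893 to 20339926 reads, recovered from the deposited FPKM values (fragments counted on a gene, divided by its length and by the size of the library). Heart muscle genes were abundant in all of them, with a summed level of 15192 to 17788 FPKM over 12 markers. Within this sum some genes varied more, among them Myl7, at 45.3, 357 and 1019 FPKM in FF and at 337, 199 and 599 FPKM in cKO. Myl4 was at 7.89, 40.0 and 116 FPKM in FF and at 74.4, 50.9 and 91.2 FPKM in cKO. Myh7 differed between the groups, at 95.6, 122 and 80.0 FPKM in FF and at 583, 751 and 685 FPKM in cKO. The source of these differences was not tested. Kdm5b itself was at 3.19, 3.25 and 3.92 FPKM in FF and at 2.80, 3.03 and 2.75 FPKM in cKO replicates 1 to 3, with means of 3.45 ± 0.406 and 2.86 ± 0.149 FPKM (SD, n = 3 each). FF replicate 3 stood apart across all genes as well: its correlation with the other libraries on log2(FPKM + 1) was 0.880 to 0.909, against 0.954 to 0.984 among the other 5. In bulk tissue, fewer cells of a type and less RNA per cell cannot be told apart.

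All 43 genes had their highest level in FF replicate 3, which was also the highest library for 34.6% of the 12678 genes tested, those with a mean of at least 1 FPKM over the 6 libraries. Reads of the 43 genes numbered 26783 in FF replicate 3 and 1536 to 2031 in each of the other 5 libraries, and their summed level was 558 FPKM against 14.3 to 20.04 FPKM. The excess of FF replicate 3 over the highest other library, as a difference of log2(FPKM + 1), ran from 0.14 for Ciita to 5.77 for Trbc2, with a median of 1.98 (all genes tested, median -0.22). It reached 4-fold on this scale for 21 of the 43 genes, 19 of them among the 21 that passed the level filter, and for 0.402% of all genes tested. Just inside 4-fold were Ikzf1 (2.13) and Krt5 (2.02), and just outside were Cd2 (1.98) and Zap70 (1.91). Of the 21 genes that passed the filter, only Thy1, Satb1 and Cd74 also had a mean of at least 1 FPKM over the other 5 libraries. The other 22 genes were below it and were not tested.

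**Figure D1:**
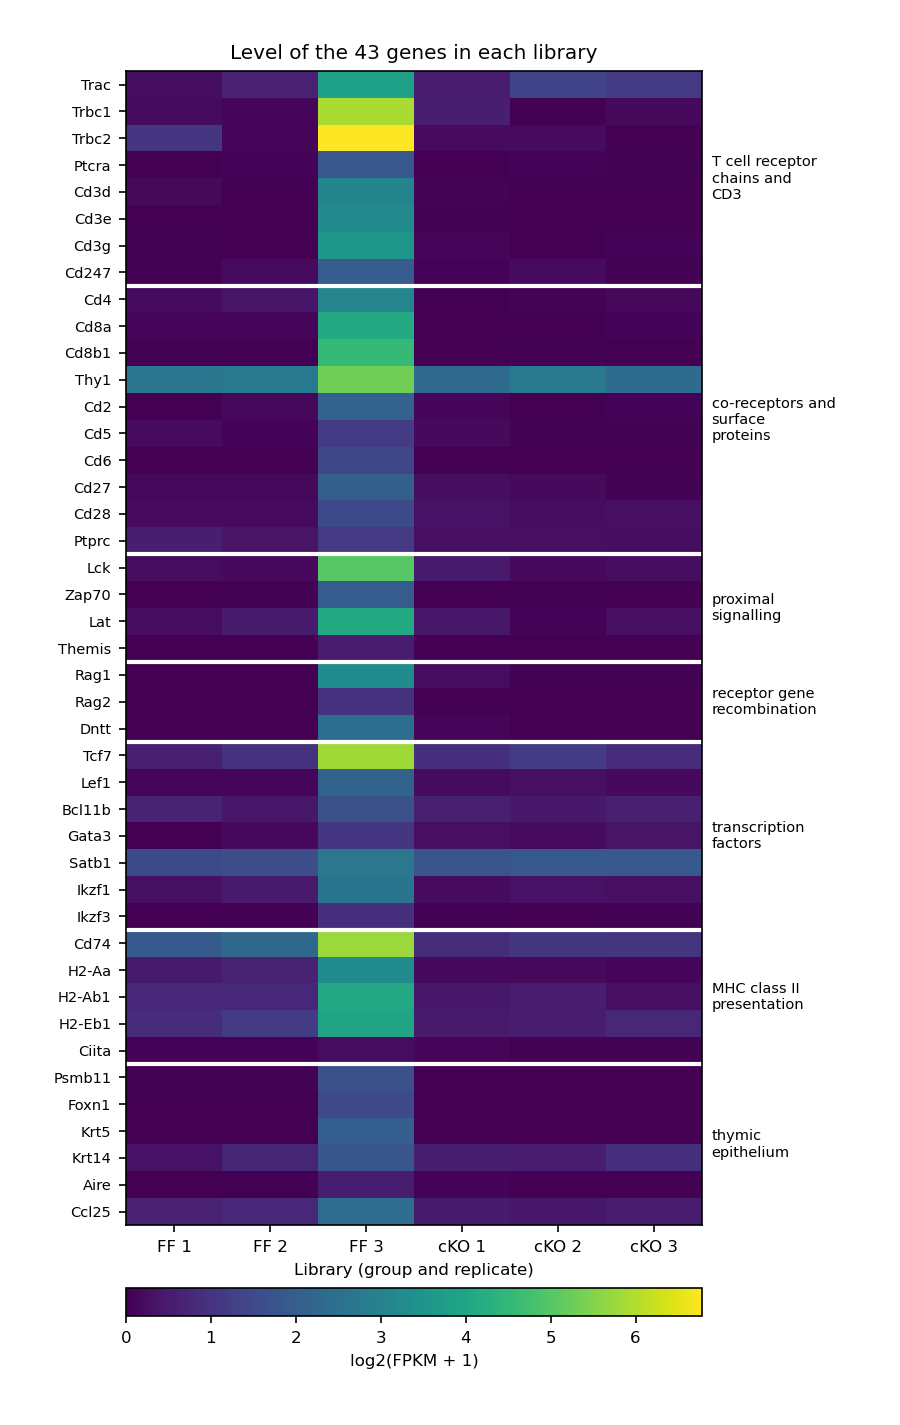
Level of each of the 43 genes (y axis, grouped by role) in each of the 6 libraries (x axis), coloured by log2(FPKM + 1). The column of FF replicate 3 is the brightest for every gene, while Thy1, Satb1 and, in FF replicates 1 and 2, Cd74 are also visible in other columns.

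The beta constant regions of the T cell receptor had the highest FPKM of these genes in FF replicate 3. Trbc2 (ENSMUSG00000076498, chr6:41523664-41525286, plus strand), a constant region of the beta chain, was at 1.02, 0.0904 and 109 FPKM in FF replicates 1 to 3 and at 0.146, 0.146 and 0 FPKM in cKO replicates 1 to 3. Trbc1 (chr6:41515152-41516815), the other beta constant region, was at 0.156, 0.0835 and 59.5 FPKM in FF and at 0.473, 0 and 0.123 FPKM in cKO. One FF library was thus far above everything else, and FF replicates 1 and 2 overlapped with the cKO libraries. The rate of Trbc2 reads in FF replicate 3 was 418 times the pooled rate of the other 5 libraries (95% exact counting interval 260 to 720), and that of Trbc1 was 350 times (199 to 680). Intervals of this kind cover counting error only.

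Trac (chr14:54457978-54461663), the constant region of the alpha chain, had other proportions to the beta chain outside FF replicate 3 than in it. It was at 0.188, 0.535 and 13.7 FPKM in FF and at 0.433, 1.57 and 1.23 FPKM in cKO, with 3, 8 and 246 reads in FF and 8, 29 and 25 reads in cKO. The summed beta constant regions had 14, 2 and 2297 reads in FF and 9, 2 and 2 in cKO. In FF replicate 3 beta reads outnumbered alpha reads, whereas in FF replicate 2 and in cKO replicates 2 and 3 alpha reads were the more numerous. The ratio of FF replicate 3 to the pooled others was accordingly 16.6 for Trac (12.7 to 21.9).

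Ptcra, the pre-T alpha chain that pairs with a new beta chain in immature thymocytes, had 0, 1 and 63 reads in FF and 0, 1 and 1 reads in cKO, or 2.57 FPKM in FF replicate 3 and at most 0.0487 FPKM elsewhere. The CD3 genes, whose products carry the receptor signal into the cell, lie side by side on chromosome 9. Cd3g was at 0.0358, 0 and 11.1 FPKM in FF and at 0.062, 0.0155 and 0.0423 FPKM in cKO. Cd3e and Cd3d reached 8.57 and 7.37 FPKM in FF replicate 3 and at most 0.0248 and 0.0968 FPKM in any other library. Cd247, the zeta chain, was at 2.91 FPKM against at most 0.152 FPKM, and its gene overlaps Pou2f1, which had 256 to 429 reads per library. As a group these 8 genes summed to 215 FPKM in FF replicate 3 and to 0.898 to 1.92 FPKM in the other libraries.

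Segments of the receptor genes, which are outside the list of 43, were read in the same library. Variable, diversity and joining segments of the 4 T cell receptor loci gave 0, 5 and 878 reads in FF replicates 1 to 3 and 4, 2 and 10 reads in cKO replicates 1 to 3. Of the 262 such genes in the table, 59 had a read in FF replicate 3 and 0 to 4 in each other library. Beta variable segments made up most of them: 722 reads in 22 of 35 Trbv genes, against 6 reads in the other 5 libraries together. The 7 most read of these genes, Trbv16 (82 reads), Trbv15 (80), Trbv20 (76), Trbv13-2 (73), Trbv17 (63), Trbv2 (60) and Trbv3 (56), held 490 of the 722. The reads were therefore spread over many segments and not held by a single one.

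Alpha segments were read less, with 47 reads in 15 of 130 Trav genes and 17 reads in 5 of 60 Traj genes in FF replicate 3. The other 5 libraries had 0 Trav reads and 6 Traj reads, all 6 in cKO replicate 3. Constant regions of the gamma and delta chains, which form the receptor of another T cell lineage, were also highest there: Trgc genes had 2, 0 and 258 reads in FF and 6, 3 and 6 in cKO, and Trdc had 0, 1 and 174 reads in FF and 6, 4 and 1 in cKO. Variable segments of immunoglobulin, the B cell receptor, did not follow this pattern, with 7, 9 and 13 Ighv reads in FF and 3, 4 and 5 in cKO, and 9, 6 and 3 Igkv reads in FF and 3, 2 and 0 in cKO.

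**Figure D2:**
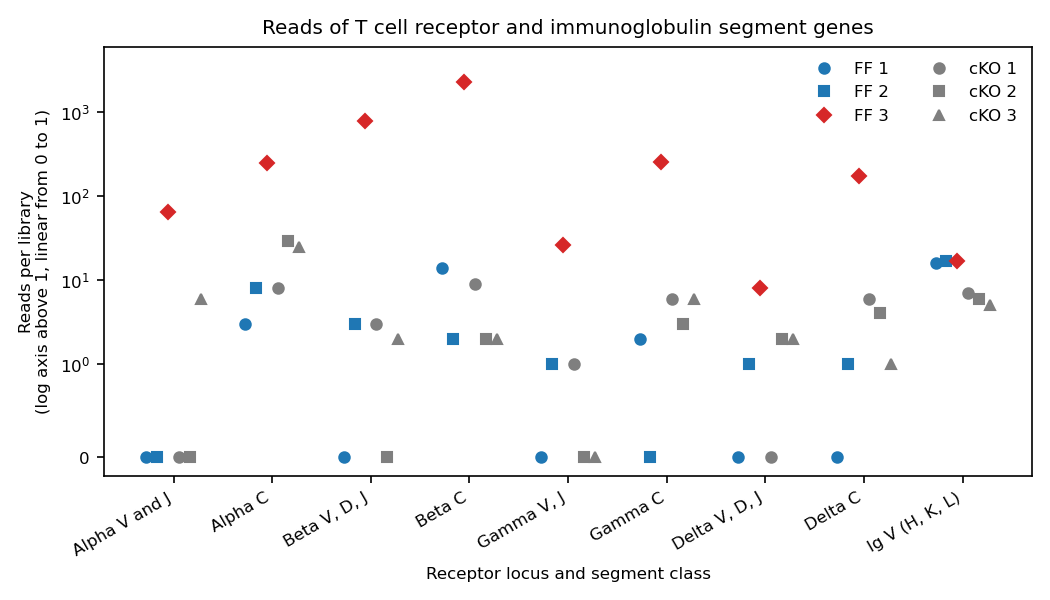
Reads per library (y axis, log above 1) summed over variable, diversity and joining segments or constant regions of each T cell receptor locus and over immunoglobulin variable segments (x axis). FF replicate 3 (red) lies above the other 5 libraries for every T cell receptor class, by the widest margin for beta, and within the FF libraries for immunoglobulin variable segments.

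Co-receptors of both T cell lineages were read in FF replicate 3 and close to 0 elsewhere. Cd4, the co-receptor for MHC class II, was at 0.145, 0.295 and 7.55 FPKM in FF and at 0.0126, 0.0502 and 0.114 FPKM in cKO. Cd8a was at 0.0644, 0.0688 and 16.6 FPKM in FF and at 0, 0 and 0.038 FPKM in cKO, and its neighbour Cd8b1 at 0, 0 and 22.3 FPKM in FF and 0, 0.0341 and 0 FPKM in cKO; together they encode the co-receptor for MHC class I. A single Cd8b1 read was found in the other 5 libraries against 632 in FF replicate 3, a ratio of 3113 with a counting interval from 557 to 123144.

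Thy1, a surface protein of thymocytes that neurons and fibroblasts also carry, was the exception in this group because every library read it well. It was at 5.36, 5.70 and 38.9 FPKM in FF and at 3.97, 5.69 and 4.21 FPKM in cKO, 7.90 times the pooled rate of the others (7.38 to 8.45). The remaining 6 surface genes, Cd2, Cd5, Cd6, Cd27, Cd28 and Ptprc, were at 1.19 to 3.36 FPKM in FF replicate 3 and at most 0.486 FPKM elsewhere. Ptprc, the CD45 phosphatase of all white blood cells, had the smallest excess of them (0.56) and had 75 to 152 reads in each of the other libraries. Cd27 overlaps Vamp1, which had 316 to 453 reads in every library.

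Of the signalling genes next to the receptor, Lck, the kinase that CD4 and CD8 bind, was at 0.16, 0.128 and 31.3 FPKM in FF and at 0.415, 0.121 and 0.189 FPKM in cKO. Lat, the adaptor that Zap70 phosphorylates, was at 0.169, 0.407 and 16.3 FPKM in FF and at 0.348, 0.0549 and 0.216 FPKM in cKO. Both were thus above every other library only in FF replicate 3, by ratios of 151 (116 to 201) and 69.8 (53.8 to 92.1). The kinase Zap70 had 166 reads there and 0 to 2 elsewhere, and Themis, which thymocytes need for selection, had 99 reads and 0 to 2.

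Genes that act only while receptor genes are being joined were also read. Rag1, a subunit of the recombinase, was at 0.0177, 0.00946 and 8.79 FPKM in FF and at 0.169, 0.023 and 0.0279 FPKM in cKO, or 1112 reads in FF replicate 3 and 22, 3 and 4 reads in cKO replicates 1 to 3. Rag2, the other subunit, had 64 reads in FF replicate 3 and 0 in each of the other 5, which makes it at least 105 times higher if 3 reads over those 5 libraries are allowed as the limit of a count of 0. Dntt, the terminal transferase that adds bases at the joins, had 197 reads in FF replicate 3, 3 in cKO replicate 1 and 0 in the rest. Only cKO replicate 1 among the others therefore had more than 4 reads of any of the 3 genes. Rag1 and Rag2 both overlap Iftap, which had 418 to 729 reads per library and was lowest in FF replicate 3.

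Transcription factors of the T lineage were less uniform. Tcf7, the factor TCF1 that Notch signalling turns on in early thymocytes, was at 0.524, 0.973 and 55.6 FPKM in FF and at 0.906, 1.26 and 0.809 FPKM in cKO, a ratio of 61.9 (54.5 to 70.6) on 3216 reads. Its relative Lef1 was at 0.0733, 0.0925 and 3.49 FPKM in FF and at 0.156, 0.219 and 0.131 FPKM in cKO. Ikzf1, the lymphoid factor Ikaros, was at 0.232, 0.412 and 5.17 FPKM in FF and at 0.156, 0.261 and 0.218 FPKM in cKO. Satb1, a chromatin organiser of thymocytes that was read in all hearts, was at 1.89, 2.02 and 5.43 FPKM in FF and at 2.54, 2.66 and 2.74 FPKM in cKO, only 2.26 times the pooled others (2.14 to 2.38). Bcl11b, Gata3 and Ikzf3 were at 0.925 to 2.20 FPKM in FF replicate 3. The excess therefore ranged over this group from 0.71 for Gata3 to 4.65 for Tcf7.

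The MHC class II genes were also ordered among the libraries other than FF replicate 3: FF replicates 1 and 2 both lay above all 3 cKO libraries for 4 of the 5 genes, as they did for 27.0% of all genes tested. Cd74 (ENSMUSG00000024610, chr18:60936920-60945724, plus strand), the invariant chain that guides class II molecules, was at 2.79, 3.87 and 53.0 FPKM in FF and at 0.844, 1.15 and 1.04 FPKM in cKO. H2-Aa, the alpha chain of I-A, was at 0.401, 0.56 and 8.57 FPKM in FF and at 0.133, 0.133 and 0.0849 FPKM in cKO. H2-Ab1, its beta chain, was at 0.73, 0.682 and 16.1 FPKM in FF and at 0.355, 0.433 and 0.215 FPKM in cKO. For all 3 genes the order was FF replicate 3, then FF replicates 1 and 2, then the cKO libraries, with no overlap between the groups. H2-Eb1, the beta chain of I-E, was at 0.813, 1.29 and 14.4 FPKM in FF and at 0.417, 0.442 and 0.735 FPKM in cKO, in the same order. Ciita, the coactivator that turns class II genes on, was barely read, at 0.0491, 0.0459 and 0.17 FPKM in FF and 0.0584, 0.0371 and 0.0242 FPKM in cKO, and overlaps Dexi, which had 207 to 393 reads per library. FF replicate 3 exceeded the pooled others 29.1 times for Cd74 (25.7 to 33.1), 35.3 times for H2-Aa (28.1 to 44.7), 34.7 times for H2-Ab1 (28.4 to 42.7), 20.2 times for H2-Eb1 (16.7 to 24.6) and 4.02 times for Ciita (2.42 to 6.63).

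Thymic epithelial genes were low in FF replicate 3 and lower in the rest. Foxn1, the factor that makes thymic epithelium, had 111 reads (1.80 FPKM) there and 0 in the other 5 libraries, at least 182 times higher. Krt5, a keratin of medullary epithelium, had 128 reads (3.04 FPKM) and 0 elsewhere, at least 210 times higher. Both limits again allow 3 reads over the 5 libraries.

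Psmb11, the proteasome subunit of cortical epithelium, had 2, 2 and 200 reads in FF and 0, 1 and 0 in cKO (2.18 FPKM in FF replicate 3). Aire, which lets medullary epithelium make proteins of other tissues, had 33 reads in FF replicate 3, 3 in cKO replicate 1, 1 in cKO replicate 2 and 0 in the rest. Cortical and medullary genes were thus both read. Ccl25, a chemokine that draws progenitors in, was at 0.527, 0.714 and 4.41 FPKM in FF and at 0.401, 0.347 and 0.452 FPKM in cKO, but its gene overlaps Elavl1, which had 1254 to 1661 reads in every library. Krt14, a keratin of basal epithelia in many organs, was at 0.267, 0.64 and 2.5 FPKM in FF and at 0.49, 0.46 and 0.917 FPKM in cKO. For these 2 genes, therefore, reads outside FF replicate 3 were no rarity.

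Thymic stroma genes outside the 43 gave the same picture for part of their list. Of 28 such genes 22 were highest in FF replicate 3 and 6 exceeded 4-fold on the log2(FPKM + 1) scale: Prss16, Tbata, Krt8, Krt17, Krt18 and Pax1. Prss16, a serine protease of cortical epithelium, was at 20.2 FPKM against at most 0.0299 FPKM elsewhere, and Krt18 at 50.02 FPKM against at most 5.90 FPKM. Ctsl and Ltbr, which many tissues express, were at 46.7 and 36.7 FPKM in FF replicate 3 and at most 32.1 and 21.5 FPKM elsewhere. The summed level of the list was 267 FPKM against 108 to 121 FPKM.

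T cell receptor signalling genes outside the 43 followed in direction but not in size. Of 22 genes 19 were highest in FF replicate 3, 0 exceeded 4-fold and 8 exceeded 2-fold, with Rasgrp1 at 3.25 FPKM against at most 0.0943 FPKM. Of 22 further T lineage transcription factors 17 were highest in FF replicate 3 and only Myb exceeded 2-fold, at 2.15 FPKM against at most 0.118 FPKM. Of the 15 immature thymocyte markers, 12 were highest there, and 7 of the 15 are among the 43, which were chosen on that library. Rmnd5a (13.4 FPKM) and Cd1d1 (9.88 FPKM) were lowest in FF replicate 3, and Tcf12 (6.43 FPKM) lay within the range of the others. Beside these counts, FF replicate 3 was the highest library for 34.6% of all genes tested. All 14 T cell markers belong to the 43, and their sum was 269 FPKM against 1.55 to 2.19 FPKM.

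Markers of other cell types moved with FF replicate 3 to different degrees. The B cell list summed to 11.3, 10.5 and 23.1 FPKM in FF and to 5.89, 6.0 and 5.77 FPKM in cKO; Ighm reached 12.9 FPKM, while Ms4a1 (1 read) and Pax5 (3 reads) were no higher in FF replicate 3 than elsewhere. Natural killer and innate lymphoid markers summed to 0.414, 0.341 and 10.7 FPKM in FF and to 0.121 to 0.295 FPKM in cKO, nearly all of it the granzyme Gzma (8.78 FPKM), with Klra1, Ncr1 and Tbx21 at 0 in all 6 libraries. Macrophage markers summed to 103 FPKM in FF replicate 3 against 43.6 to 62.7 FPKM, and dendritic cell markers to 24.6 FPKM against 21.4 to 29.4 FPKM. Erythroid genes summed to 1554 FPKM against 753 to 1096 FPKM, and neutrophil genes to 15.9 FPKM against 24.3 to 26.4 FPKM in the other FF and 8.57 to 10.9 FPKM in the cKO libraries. The part of these cells in the levels of the 43 genes was not tested.

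Markers of tissues that lie near the thymus differed in direction, and their sums rest on few genes. Lung and airway markers summed to 91.6 FPKM in FF replicate 3 and to 134 to 170 FPKM elsewhere, nearly all of it Hopx (89.2 to 168 FPKM), with Nkx2-1 at 0 in all libraries. The surfactant gene Sftpc had 0 reads in each FF library and 0, 34 and 7 reads in cKO replicates 1 to 3. Sftpb had 22 reads in cKO replicate 2 and 2 to 6 in each other library. Of the 10 lung and airway genes 2, Ager and Foxj1, were highest in FF replicate 3. Thyroid and parathyroid markers were highest in FF replicate 3, at a sum of 1.38 FPKM against 0.641 to 1.32 FPKM, with Gcm2 and Pth at 0 throughout. Brown fat genes summed to 75.8 FPKM against 88.5 to 155 FPKM, most of it Fabp4, and skin and oesophagus genes to 129 FPKM against 150 to 169 FPKM, most of it Perp. Hopx, Fabp4 and Perp were read well in every library. Sfn of the skin and oesophagus list was higher in FF replicate 3, at 7.19 FPKM against 0.973 to 2.01 FPKM. Proliferation genes, which dividing thymocytes express as heart cells do, summed to 85.3 FPKM against 110 to 165 FPKM, and 0 of 10 were highest in FF replicate 3.

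**Figure D3:**
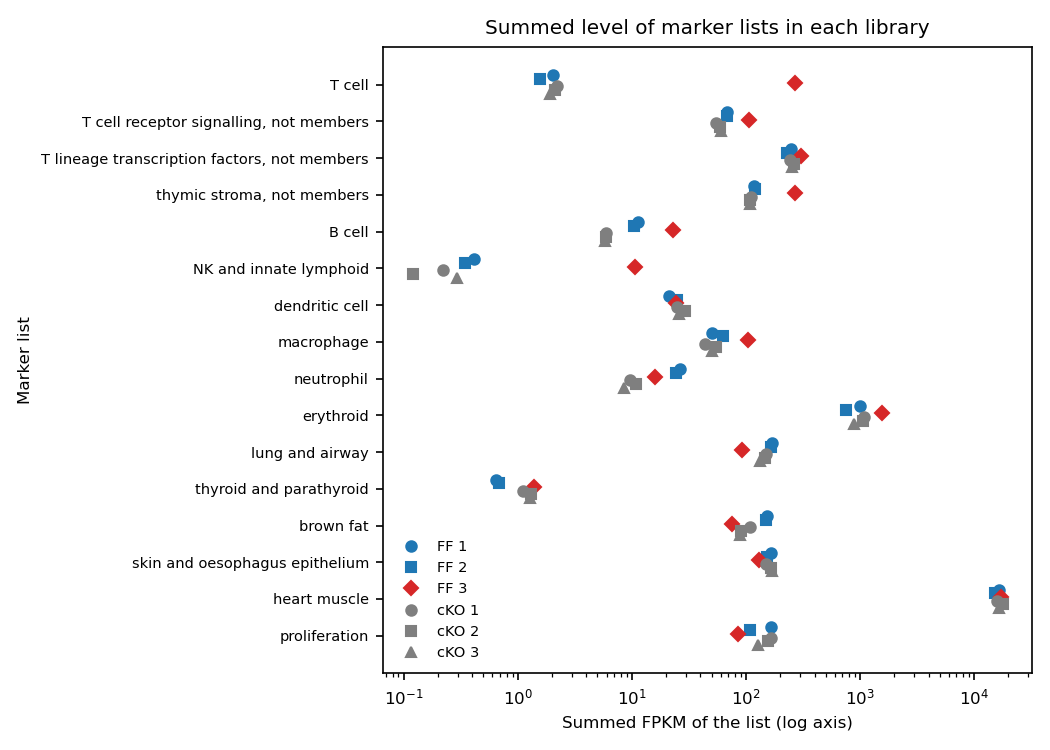
Summed FPKM (x axis, log) of each marker list (y axis) in each library, with FF replicate 3 in red. T cell markers reach 269 FPKM in FF replicate 3 against 1.55 to 2.19 FPKM in the others, and heart muscle markers lie between 15192 and 17788 FPKM in all 6.

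The GC content of the 43 genes was a median of 50.1%, against 49.7% for the genes tested. Over 5991 genes outside the list whose GC content lay within the middle range of the 43 (46.3% to 55.5%), FF replicate 3 exceeded the mean of the other 5 libraries by a median of 0.12 on log2(FPKM + 1). The part of GC content in the levels of the 43 genes was not tested.

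Ranked by excess among all genes with a name, the top 10 included Trbc2, Trbc1, Tcf7, Trbd2, Lck, Cd8b1, Prss16, Cd8a and Trbj2-1. Of the 10, 6 belong to the 43 and 2 are receptor segments, which are so short that 6 reads of Trbd2 give 22.4 FPKM. Among the top 50 were 19 of the 43 genes, 17 segments and 14 other genes.

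**Figure D4:**
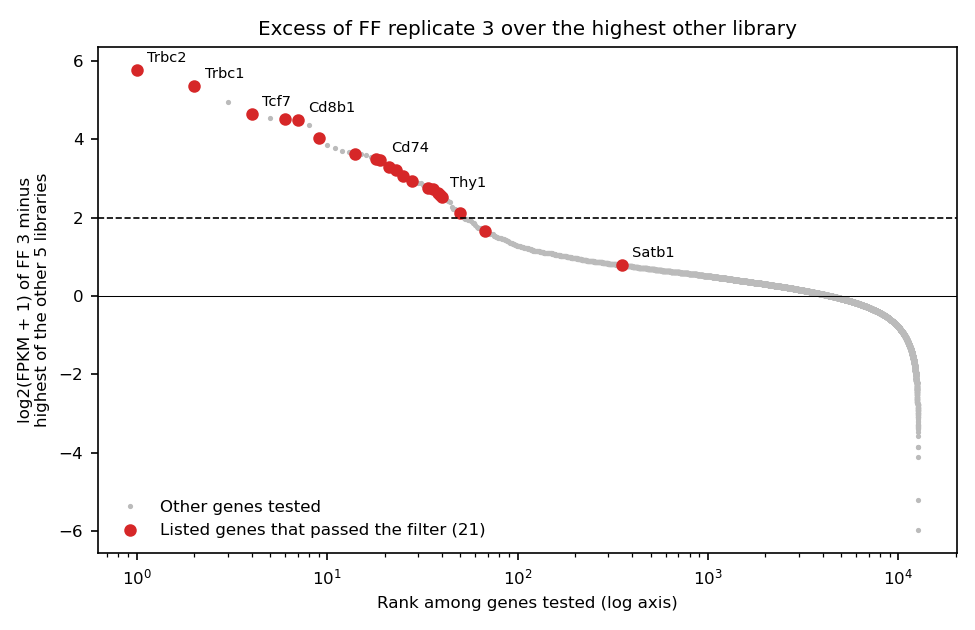
Difference in log2(FPKM + 1) between FF replicate 3 and the highest of the other 5 libraries (y axis) for the 12678 genes tested, ranked (x axis, log). The 21 listed genes that passed the filter are red, 19 of them lie above the dashed 4-fold line, and the remaining genes are grey.

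The comparison of cKO with FF hearts asks which genes depend on Kdm5b, and with all 6 libraries it holds the library on which these genes were chosen. In limma with Benjamini-Hochberg adjustment, 0.166% of the genes tested differed (21 genes, 9 higher and 12 lower in cKO), and 0 of the 21 tested genes of the list did; 1 of them had an unadjusted p under 0.05, and limma voom on the recovered reads also called 0. Their median log2 difference (cKO minus FF) was -1.30, against 0.01 over all genes tested. For Trbc2 it was -2.51 (SE 1.62, adjusted p = 0.473, limma) and for Cd74 -2.32 (SE 0.95, adjusted p = 0.272, limma). Leaving out any 1 of the other 5 libraries brought the 21 calls over all genes to 0, and leaving out FF replicate 3 raised them to 1520. Since the members were chosen on FF replicate 3, these values are given as a description.

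The 5 libraries without FF replicate 3 read most of the list too little for a comparison of the groups. Of the 21 tested genes all but 3 passed the level filter only through FF replicate 3, and at such levels the pseudocount shrinks a difference: that of Cd4 was -0.20, but -1.02 with a pseudocount of 0.1 and -2.06 with limma voom. Counts over the list are therefore given as they stand, with nothing read from them. With FF replicates 1 and 2 against 3 cKO libraries, limma with Benjamini-Hochberg adjustment called 12.0% of all genes tested, and 6.26% lower in cKO, and 1 of the 21 tested genes of the list, Cd74. An unadjusted p under 0.05 was reached by 5 of the 21 (Cd74, H2-Aa, Satb1, H2-Ab1 and H2-Eb1). Of the 21 genes 12 had a lower and 9 a higher value in cKO, with a median log2 difference of -0.08 (all genes tested, -0.01). Both FF libraries lay above all 3 cKO libraries for 7 of the 21, Cd4, Cd8a, Cd74, H2-Aa, H2-Ab1, H2-Eb1 and Ccl25, beside the 27.0% of all genes tested given above. They lay below all 3 for 2 of the 21, Rag1 and Satb1, and the share of all genes with that order was not counted. With the filter set over the 5 libraries, an alternative chosen after seeing the data, 3 genes of the list (Thy1, Satb1 and Cd74) and 12631 genes in all were tested, and 1 and 1716 of them were called. The count over all genes rested on few libraries: of 1520 called, 0 were left without FF replicate 1 or without FF replicate 2, 509 without cKO replicate 2 and 97 without cKO replicate 3.

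Cd74 fell by 1.10 on the log2(FPKM + 1) scale in cKO without FF replicate 3 (SE 0.15, 95% interval -1.46 to -0.74, adjusted p = 0.0172, limma). This rested on 80 and 104 reads in FF replicates 1 and 2 and on 28, 38 and 38 in cKO. The call was lost on leaving out FF replicate 1 (log2 difference -1.28, adjusted p = 0.0815, limma), FF replicate 2 (-0.92, adjusted p = 0.0885) or cKO replicate 3 (-1.11, adjusted p = 0.0604), and the sign stayed negative in each. Over the alternatives run, the log2 difference of Cd74 lay between -0.92 and -1.69.

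The 3 class II chains had differences in the same direction that did not pass the limma threshold: -0.40 for H2-Aa (SE 0.12, adjusted p = 0.0801), -0.36 for H2-Ab1 (SE 0.13, adjusted p = 0.113) and -0.42 for H2-Eb1 (SE 0.16, adjusted p = 0.131). H2-Aa passed with limma voom (-1.99, adjusted p = 0.0157) and with a pseudocount of 0.1 (-1.41, adjusted p = 0.0388), since at these levels the pseudocount of 1 shrinks the difference. All 3 chains passed the level filter only through FF replicate 3. Their p-values are therefore a description and lend nothing to the result for Cd74. The sum of Cd74, H2-Aa, H2-Ab1 and H2-Eb1 was 4.74 and 6.40 FPKM in FF replicates 1 and 2 and 1.75, 2.15 and 2.08 FPKM in cKO, with means of 5.57 ± 1.18 (SD, n = 2) and 1.99 ± 0.215 FPKM (SD, n = 3). FF and cKO values did not overlap for the sum, which follows from the lack of overlap in each of its genes. The sum therefore adds nothing to the values of the single genes.

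**Figure D5:**
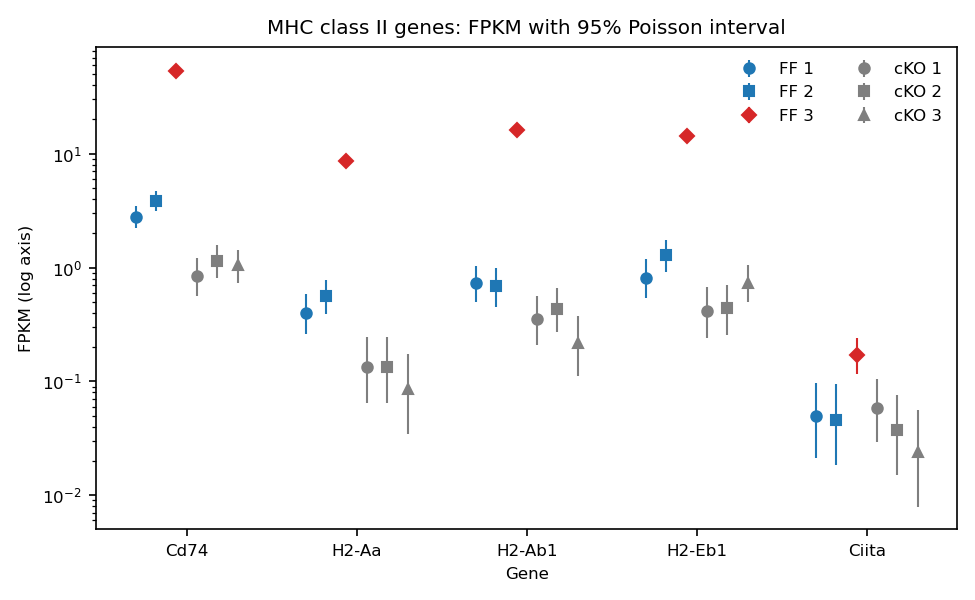
FPKM (y axis, log) of the 5 MHC class II genes (x axis) in each library, with 95% exact Poisson intervals as bars, which cover counting error only. FF replicates 1 and 2 (blue) lie above the cKO libraries (grey) for Cd74, H2-Aa, H2-Ab1 and H2-Eb1, and not for Ciita, and FF replicate 3 (red) lies above all of them.

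Cells that carry class II molecules in a heart include macrophages, dendritic cells and B cells, so their markers are given beside this result. Without FF replicate 3, macrophage markers summed to 51.0 and 62.7 FPKM in FF and to 43.6, 54.6 and 50.1 FPKM in cKO, and dendritic cell markers to 21.4 and 24.7 FPKM in FF and to 24.7, 29.4 and 26.0 FPKM in cKO. B cell markers summed to 11.3 and 10.5 FPKM in FF and to 5.77 to 6.0 FPKM in cKO, and 1 of their 3 tested genes, the light chain Igkc, fell by 1.31 (adjusted p = 0.0176, limma) on 18 and 18 reads in FF and 6, 1 and 1 reads in cKO. Among 9 tested macrophage and 4 tested dendritic cell genes only Lyve1 passed, 0.84 higher in cKO (adjusted p = 0.0164, limma). Lyve1 went against its list, since the median log2 difference was -0.21 over the tested macrophage genes. It was -0.13 over the tested dendritic cell genes. Most of the dendritic cell sum was Bst2, at 15.4 and 17.1 FPKM in FF and at 18.7, 24.0 and 20.8 FPKM in cKO. T cell markers summed to 2.02 and 1.55 FPKM in FF and to 1.91 to 2.19 FPKM in cKO. The part of these cells in the class II difference was not tested.

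Receptor and thymocyte genes showed no call in this 5-library comparison, and their intervals were set by few reads. The limma log2 difference was -0.44 for Trbc2 (95% interval -1.07 to 0.20), 0.08 for Trbc1 (-0.38 to 0.54), 0.58 for Trac (-0.07 to 1.23), 0.08 for Rag1 (-0.24 to 0.40) and 0.19 for Tcf7 (-0.21 to 0.60). Trac passed when cKO replicate 1 was left out (0.83, adjusted p = 0.0443, limma). All of these genes passed the level filter only through FF replicate 3, so nothing is read from their values. Thy1 and Satb1, which were read well in every library, had -0.23 (-0.58 to 0.13) and 0.30 (0.06 to 0.55, adjusted p = 0.0933, limma), and Satb1 passed with limma voom (0.44, adjusted p = 0.0245). Of the genes below the level filter, Ptprc and Psmb11 were higher in both FF than in all cKO libraries and Cd28, Lef1 and Gata3 lower, on values of at most 0.486 FPKM. Psmb11 had 2 and 2 reads in FF and 0, 1 and 0 in cKO. The share of all genes at such levels with either order was not counted, so nothing is read from these orders.

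Other genes of the same pathways gave few calls in that comparison. Of 9 tested T cell receptor signalling genes 2 were lower in cKO, the kinase Fyn (-0.67, adjusted p = 0.0305, limma) and the adaptor Bcl10 (-0.44, adjusted p = 0.0337). Of 15 tested T lineage transcription factors 2 were higher, among them Egr1 (0.95, adjusted p = 0.0224, limma), and 1 lower, the Notch target Hes1 (-0.53, adjusted p = 0.024). Of 15 tested thymic stroma genes 2 were higher, Ackr4 (0.56, adjusted p = 0.04, limma) and Cxcl12 (0.37, adjusted p = 0.0491), and 1 lower, Kitl (-1.45, adjusted p = 0.0168). Most of these called genes were read in every library, Fyn at 13.8 to 28.0 FPKM and Cxcl12 at 13.2 to 19.3 FPKM. Their counts, 2 of 9, 3 of 15 and 3 of 15, stand beside the 12.0% called over all genes tested.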

How the data were processed

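Per the file headers, the authors deposited FPKM values for 56748 genes in 6 columns, of which 0 could not be mapped to a sample. Tools listed in the submitters' processing notes, without their order, are edgeR, featureCounts, Subread, TopHat2 2.0.13 and FastQC; builds listed there, without their use, are mm10, GRCm39 and the human GRCh38. No source used here gives the strand setting, so overlapping genes may share reads (22 of the 43 genes overlap another gene, 9 of them one with at least 10 reads). GENCODE M21 (GRCm38) shares 52073 gene identifiers with the table, with equal start and end for 1472 of them and for 0 of the 43 genes, so gene coordinates follow the deposited table, whose build is then GRCm39 among the mouse builds listed. FPKM times gene length was a whole multiple of 1 step per library; 100% of the values under 200 reads lay within 0.1 of a whole number, which gave the reads.

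Differences were tested with limma 3.58.1 (R 4.3.3) on log2(FPKM + 1), which understates the change of low genes, with a single group term, an intensity trend and Benjamini-Hochberg adjustment at 0.05 over 12678 genes with a mean of at least 1 FPKM. The same test without FF replicate 3 used the libraries that did not choose the genes, although the level filter still included that library. Exact 95% Poisson and binomial intervals cover counting error only. The 43 genes, the marker lists and the tests were chosen with earlier results of these data known. Named genes were, by rule, 21 fixed members, up to 4 members per role with the highest level in FF replicate 3, members called without it, the 10 genes with the largest excess, members on either side of 4-fold, and from each other list those with the highest level or the smallest p where a result turned on them. Some genes that the rule picks are not reported here. The steps were tested on simulated data. Alternatives were other pseudocounts, filters and scalings, a robust prior, limma voom on the reads, the replicate block and leaving out each library.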

Additional observations from a re-analysis of the deposited data

How the results depend on the processing

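The difference of Cd74 stayed negative under every alternative, but some differences that were not called changed sign. Without FF replicate 3, Trac went from -0.57 to 0.58, Trbc1 from -1.84 to 0.08 and Tcf7 from -1.48 to 0.19. Others kept their sign, such as Trbc2 (-2.51 to -0.44) and Cd4 (-1.14 to -0.20). The 21 calls over all genes with 6 libraries became 11 with a pseudocount of 0.1 and 0 with no filter. They became 53 with a mean of at least 5 FPKM and 12 with at least 0.1 FPKM. Quantile normalization gave 59, a robust trend 13 and limma voom 11. Leaving out 1 library gave 0 to 1520, the latter without FF replicate 3. Calls among the 43 genes were 0, and 0 to 1 on leaving out 1 library, the 1 again without FF replicate 3. Without that library, the 1520 calls over all genes became 0 with no filter, 457 with a mean of at least 0.1 FPKM, 2433 with limma voom and 0 to 1705 on leaving out another library (0 without FF replicate 1 or 2, which leaves 1 FF library, 97 without cKO replicate 3); a filter of 0.1 FPKM over the 5 libraries, chosen after seeing the data, gave 831. The 1 call among the 43 genes became 2 with a pseudocount of 0.1, 0 with no filter, 3 with limma voom and 0 to 2 on leaving out another library. The lone FF library is then assumed to vary like the cKO libraries. The 21 genes past 4-fold in FF replicate 3 became 36 with a pseudocount of 0.1, 34 at 2-fold and 12 at 8-fold. Where the setting does not itself explain a change, the cause was not tested.

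With the replicate number as a block, 2 genes were called with 6 libraries and 287 without FF replicate 3. Samples of the same number correlated in their deviations from the group mean by 0.38, -0.24 and 0.24. FF replicate 3 weighs on the FF mean, so these values cannot decide whether samples of the same number were paired. The labels give them only a shared number. Depth limits the 14 genes with under 10 reads over the other 5 libraries.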

Other observations

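Accessory genes of class II presentation, chosen after their values were seen, were also read mostly in FF replicate 3. H2-DMb1 and H2-DMb2, chains of the molecule that loads peptides onto class II, were at 2.02 and 2.09 FPKM there, at 0.179 to 0.453 FPKM in the other FF libraries and at 0 to 0.164 FPKM in cKO. H2-Oa, a chain of the molecule that restrains this loading, had 0, 0 and 59 reads in FF and 0, 1 and 4 in cKO. Its partner H2-Ob went the other way, with 8, 13 and 1 reads in FF and 15, 5 and 12 in cKO. None of these genes passed the level filter.

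The 14 genes among the 50 largest excesses that are neither listed nor receptor segments included further genes of white blood cells. Coro1a, an actin regulator of lymphocytes, was at 18.8 FPKM in FF replicate 3 and at 0.927 to 2.79 FPKM elsewhere, and the small GTPase Rac2 was at 16.4 FPKM against 0.669 to 1.57 FPKM. The gamma constant genes Trgc1 and Trgc2 were at 6.67 and 6.97 FPKM against at most 0.219 and 0.202 FPKM.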
